A study of Mus musculus with 24 samples.

Results

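The expression of 11794 genes was compared between cGAS knockout (KO) and wild-type (WT) mouse embryonic fibroblasts on day 36 of culture. A gene entered the comparison when it reached at least 5 CPM (counts scaled to the size of the library, that size being its total times a normalization factor) in either day 36 library, which kept 11794 of 45706 listed genes and of 28938 genes with any count. Of these, 10944 reached 5 CPM in both genotypes, 471 in WT alone and 379 in KO alone. Erdr1, with 5.0 CPM in WT against 4.525 CPM in KO, was among the genes just inside this limit, and Zfp13, with 4.24 CPM in WT and a KO value just short of the limit, was among those just outside.

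All cells were primary embryonic fibroblasts of a strain labelled C57B1/6, and the labels give genotype as the only planned difference between the groups. RNA was taken on days 33, 36 and 42, at passages 11, 12 and 14, from bulk cultures kept at 20% oxygen, and was made into stranded mRNA libraries. Each genotype and day carries 4 numbered samples, but their 4 deposited columns differed by less than the sampling noise and were counted as 1 sample. Each genotype therefore has 1 library at day 36 and 3 libraries over the series. The number of embryos or separate cultures behind a library is not given in the labels, so an effect of genotype and a difference between culture lines cannot be told apart. In these bulk samples, fewer cells of a type and less RNA per cell cannot be told apart either.

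cGAS, encoded by Mb21d1, is an enzyme that binds double-stranded DNA in the cytosol and makes the messenger cGAMP, which activates the adaptor STING and, through it, interferon and inflammatory genes. Fibroblasts passaged for long periods can enter senescence, a lasting arrest marked by the cell cycle inhibitors of the Ink4 locus and by secretion of cytokines, proteases and growth factor binding proteins. Embryonic fibroblasts cultured in atmospheric oxygen can also escape from this arrest and resume growth.

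The WT day 36 library held 47091985 counts and the KO day 36 library 25650577, against 33635944 to 48716880 in the other libraries. Mitochondrially encoded transcripts took 2.381% of the WT counts and 0.694% of the KO counts. At least a 2-fold difference was found for 917 genes, or 7.78% of those compared, with 324 (2.75%) higher and 593 (5.03%) lower in KO. Of these, 201 of the higher and 334 of the lower genes reached 5 CPM in both libraries. The others entered the comparison only through the genotype in which they were high. The median log2 ratio of KO to WT over all 11794 genes was −0.04, and 5317 of them had a positive ratio. Without the TMM normalization factors (0.9215 for WT, 1.068 for KO) the median moved up by 0.22 and the split became 540 higher and 401 lower, so that the share of higher genes went from 35.3% to 57.4%. The directions named below refer to TMM-scaled values. Among the 11495 genes with a mean of 5 CPM over the 6 libraries, 282 (2.45%) were at least 2-fold higher and 517 (4.5%) lower. Differences of at least 4-fold were found for 59 higher and 214 lower genes, and of at least 16-fold for 9 higher and 36 lower genes.

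**Figure D1:**
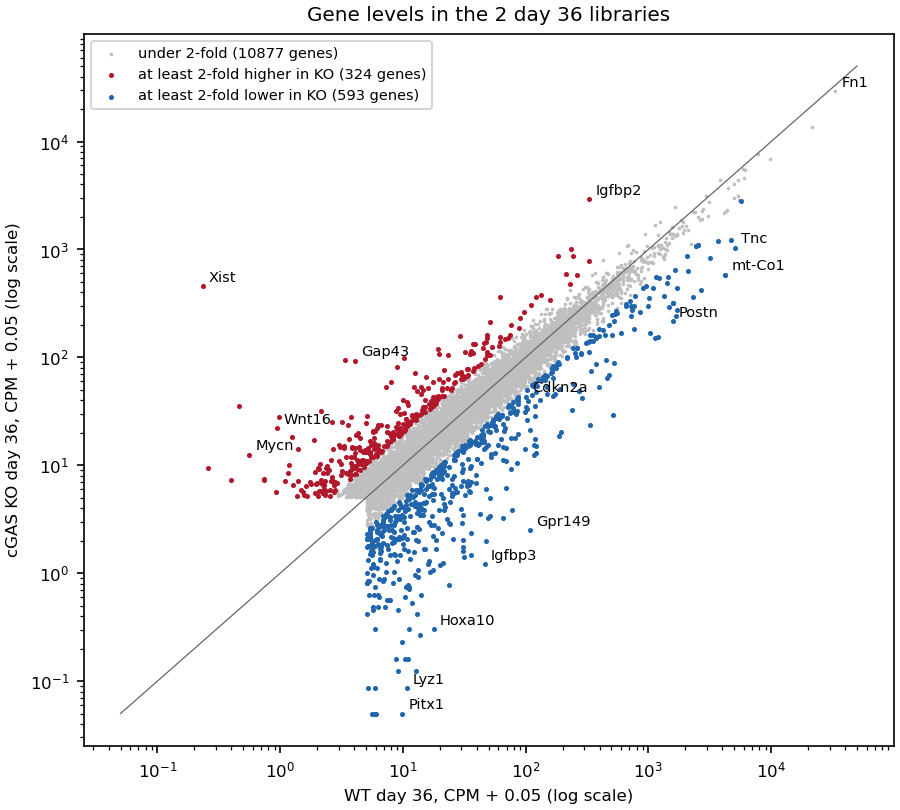
Each point is 1 of the 11794 genes, with its WT level on the horizontal axis and its KO level on the vertical axis, both as CPM at day 36 plus a small offset on log scales, and the line marks equal levels. Red points (324) are at least 2-fold higher and blue points (593) at least 2-fold lower in KO. Xist stands farthest above the line, and Pitx1, Lyz1 and Hoxa10 are among the genes far below it.

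With 1 library per genotype, the day 36 difference by itself has no replicate check. A spread could be taken only from day 33 against day 42 within each genotype, which leaves 2 residual degrees of freedom and assumes that the day 36 libraries vary like those days. Against this spread, edgeR's quasi-likelihood test with Benjamini-Hochberg adjustment called 0 of 18509 genes (0.0%), while 1430 (7.73%) had an unadjusted p below 0.05. limma-voom called 0 genes and DESeq2 called 253, of which 85 were higher and 168 lower in KO. The smallest adjusted p in the edgeR fit was 0.17, shared by genes that include Ctsk, Uty and Eif2s3y. A test of whether the day 36 difference departed from that of days 33 and 42 also called 0 genes (0.0%), with 146 (0.789%) at an unadjusted p below 0.05. DESeq2 and limma-voom called 0 genes in that test, with 122 and 119 at an unadjusted p below 0.05. The values below are therefore descriptions of these libraries, and "higher" and "lower" carry no test unless one is named. Ratios are given with exact 95% intervals that cover counting error only.

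The targeted gene, Mb21d1 (ENSMUSG00000032344, chr9:78430526-78443237, minus strand, GRCm38), had 178 counts in the WT day 36 library and 0 in the KO library. Its levels were 4.82, 4.1 and 4.79 CPM in WT on days 33, 36 and 42, and 0.241, 0.0 and 0.126 CPM in KO. At day 36 it was at least 37.5-fold lower in KO, taking 3 counts as the limit that a count of 0 allows. The WT level lay under 5 CPM, so the gene is not among the 11794.

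Transcripts of the sex chromosomes set the genotypes apart in all 6 libraries. Xist, the noncoding RNA that coats the inactive X chromosome (chrX:103460366-103483254), was at 0.184 CPM in WT against 455 CPM in KO at day 36, and at 0.057 to 0.369 CPM in WT against 481 to 639 CPM in KO on the other days. Genes of the Y chromosome were still detected in KO, at lower levels. Ddx3y had 167 CPM in WT against 44.0 in KO, Kdm5d 33.7 and 6.86, Uty 30.1 and 2.85, and Eif2s3y 69.3 and 6.09. The X-linked genes as a whole had a median log2 ratio of −0.01 over 556 genes, and the medians of the 19 autosomes ran from −0.09 to 0.0. Sex-linked expression thus moved with genotype in these libraries, and a part of the sex makeup of the cultures in the other differences cannot be told apart from that of genotype.

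The largest differences downward included a transcription factor of positional identity. Pitx1, a hindlimb factor (chr13:55825051-55836192), was at 9.77 CPM in WT against 0 counts in KO, at least 89.2-fold lower. Pitx1 was lower in KO on all 3 days, with log2 ratios of −3.67, −7.52 and −5.9.

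Among the genes with the largest ratios upward were the bHLH factor Sim2 (3.3 CPM in WT, 95.1 in KO), the Wnt ligand Wnt16 (0.899 and 22), the growth cone protein Gap43 (4.03 and 93.4), the MYC family factor Mycn (0.507 and 12.5) and the potassium channel Kcnj2 (1.2 and 18.4). Mycn and Gap43 differed less at day 33, where the log2 ratios were 0.34 and 1.14 against 4.49 and 4.51 at day 36. The remaining genes of that group, Fndc3c1, U90926, Lad1, Gprc5c, Asb5, Enpep, Comp and Arhgap28, had log2 ratios of 3.28 to 5.17. Downward, the gelatinase Mmp9 was at 10.4 CPM in WT against 0.109 in KO, the orphan receptor Gpr149 at 108 and 2.48, the urotensin gene Uts2b at 5.85 and 0.0, and the ribosomal protein paralogue Rpl39l at 8.78 and 0.109. Mmp9 was lower in KO on every day (−5.2, −6.0 and −2.29), as was Gpr149 (−6.52, −5.41 and −3.97). The largest ratios downward also included the lysozymes Lyz1 and Lyz2, whose counts are uncertain because the genes are near-identical copies, and the noncoding Hoxa11os, Ptgs2os2 and the interferon-inducible Ifi27l2b.

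Cell division genes were higher in KO as a group, by amounts mostly under 2-fold. All 36 genes of a mitosis and spindle list had a positive log2 ratio at day 36, against 5317 of all 11794 genes. The list median was 0.77 and the range 0.29 to 1.31. At least 2-fold higher were 5 members (13.9%, against 7.78% of all genes in either direction). The same 36 genes were positive on days 33 and 42, with medians of 0.66 and 0.78. Ccnb1, the cyclin that drives entry into mitosis, was at 6.22 CPM in WT against 15.5 CPM in KO, a ratio of 2.49 (2.14 to 2.91). Aurkb, the kinase of the chromosomal passenger complex, was at 9.95 and 24.1 CPM, the checkpoint kinase Ttk at 12.6 and 26.7 CPM, and the spindle motor Kif11 at 31.0 and 63.0 CPM. Mki67, the gene of the Ki-67 antigen, was at 161 CPM in WT against 258 in KO at day 36. Over the days its 3 WT values ran from 140 to 161 CPM and its 3 KO values from 228 to 288 CPM. How many of all genes were separated in this way was not counted.

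DNA replication genes showed the same direction in 32 of 33 members, with a median of 0.62. At least 2-fold higher were 3 (9.09%, against 7.78% of all genes in either direction). Uhrf1, which directs maintenance methylation to newly made DNA, was at 22.7 CPM in WT against 52.4 CPM in KO, and the helicase subunit Mcm5 at 43.6 and 87.4 CPM. The replication medians on days 33 and 42 were 0.41 and 0.87. DNA repair and checkpoint genes were positive in 23 of 24 members (median 0.67) with 6 (25.0%) at least 2-fold higher. These were Fanci, Fanca and Fancd2 of the crosslink repair pathway, the helicase Blm, the nuclease Exo1 and Bard1, the partner of Brca1. Fanci had the largest ratio, with 7.72 CPM in WT against 19.7 CPM in KO. End-joining genes stayed closer to equal levels, with log2 ratios of 0.11 for Prkdc, 0.14 for Xrcc6 and −0.26 for Lig4. In the edgeR fit 0 genes of these lists passed the threshold, and the adjusted p was 0.541 for Ccnb1, Aurkb and Blm.

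The promoters of the mitosis genes were searched because the list moved in 1 direction. In windows of 300 bases around RefSeq start sites (GRCm38.p6, 250 before and 50 after), on both strands, the cell cycle homology region TTTGAA was found in 24 of 32 windows of mitosis genes (75.0%) and in 17.9% of 32851 windows of all genes. The CCAAT box, CCAAT, was also found in 24 of the 32 (75.0%), against 37.4% of all windows. Both were present in 21 (65.6%), against 6.95%. The 2 motifs can share at most 1 base. The 35 windows of the replication genes held TTTGAA in 14.3% and CCAAT in 60.0%. A match describes the letters and is neither a binding site nor a cause. The 110 bases before the start are shown for the 3 mitosis genes with the largest ratios among the 6 that hold both motifs there, in the direction of transcription, with matches to either motif on either strand in capitals. They lie at chr19:37376272-37376381 (plus strand), chr11:99024190-99024299 (minus strand) and chr2:164769819-164769928 (plus strand).
Kif11: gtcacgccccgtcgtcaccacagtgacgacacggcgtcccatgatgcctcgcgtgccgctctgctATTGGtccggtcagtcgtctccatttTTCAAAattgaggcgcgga
Top2a: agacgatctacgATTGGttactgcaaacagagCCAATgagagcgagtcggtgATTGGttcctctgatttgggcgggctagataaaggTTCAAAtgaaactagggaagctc
Ube2c: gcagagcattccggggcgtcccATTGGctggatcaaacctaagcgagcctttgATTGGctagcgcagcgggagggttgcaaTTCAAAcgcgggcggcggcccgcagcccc
In each of the 3 the CCAAT box stands upstream of the homology region. Top2a, which untangles sister chromatids, was at 146 CPM in WT against 281 CPM in KO at day 36.

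Inhibitors of the cell cycle differed gene by gene. Of 17 genes in the list of inhibitors and senescence markers, 0 were at least 2-fold higher and 2 at least 2-fold lower in KO. These 2, which make up 11.8% of the list against 7.78% of all genes, were the neighbours Cdkn2a and Cdkn2b on chromosome 4. Cdkn2a (chr4:89274471-89294653), which encodes the p16Ink4a and p19Arf proteins from shared exons, was at 110, 101 and 84.4 CPM in WT against 40.5, 43.2 and 37.5 CPM in KO. Cdkn2b (chr4:89306299-89311039), encoding p15Ink4b, was at 62.0, 55.8 and 59.4 CPM in WT against 25.1, 12.9 and 12.7 CPM in KO. For both genes every KO library lay under every WT library, and the share of all genes separated in this way was not counted. Genes outside this list, such as Ctsk and Gpr149, were separated likewise. At day 36 Cdkn2a was 2.33-fold lower (2.19 to 2.49) and Cdkn2b 4.32-fold lower (3.86 to 4.84), with an adjusted p of 0.541 for each in the edgeR fit. Gene-level counts do not separate the transcripts of p16Ink4a from those of p19Arf.

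Cdkn1a, the p53 target that encodes p21, was at 595 CPM in WT against 321 CPM in KO at day 36, short of 2-fold, with 498 to 589 CPM in WT against 268 to 411 CPM in KO on the other days. Cdkn1b, encoding p27, was on the other side, with 38.8 CPM in WT against 69.5 CPM in KO. Lmnb1, the nuclear lamina gene that is often low in senescent cells, was at 45.3 and 75.1 CPM. Trp53 itself was at 70.0 and 90.3 CPM and its inhibitor Mdm2 at 379 and 203 CPM. Over 32 p53 targets the median log2 ratio was −0.16, with 23 negative, 1 at least 2-fold higher (Perp, 37.5 CPM in WT against 134 in KO) and 2 at least 2-fold lower (Fas and Gadd45a). These make up 9.38% of the list, near the 7.78% of all genes, and the median of all genes was −0.04.

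Genes of the pathway downstream of cGAS were compared next. Of 22 genes in the cGAS-STING list, 19 were compared and 0 differed at least 2-fold, with log2 ratios from −0.5 to 0.62 and a median of 0.15. With 7.78% of all genes past 2-fold, a count of 0 among 19 is near the background. On day 42, 1 of the same genes was at least 2-fold higher and 2 lower. The adaptor STING (Tmem173) was at 32.7 CPM in WT against 41.5 CPM in KO. The kinase Tbk1 was at 46.4 and 42.4 CPM, and the transcription factor Irf3 at 29.0 and 28.9 CPM. The nucleotide-removing enzyme Samhd1, at 88.9 and 132 CPM, and the lysosomal nuclease Dnase2a, at 11.1 and 17.2 CPM, were among the genes toward KO. Ifnb1, the interferon whose induction is the classical output of the pathway, had 0 counts in all 6 libraries.

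Interferon-stimulated genes were mostly low, and 18 of 40 reached 5 CPM. Their median log2 ratio was 0.17 at day 36, against −0.04 on day 33 and −0.52 on day 42. At day 36, 13 were positive and 5 negative. The same genes had 8 positive and 10 negative ratios on day 33, and 1 and 17 on day 42. Members past 2-fold at day 36 made up 16.7% of the 18, against 7.78% of all genes. Ifit3 was the only one at least 2-fold higher in KO, with 4.7 CPM in WT against 11.2 CPM in KO, and its value is uncertain because reads may be split with its near-identical neighbour Ifit3b. Ifi27 (26.3 and 6.13 CPM) and Lgals3bp (48.2 and 24.0 CPM) were at least 2-fold lower. Ifi27 was lower in KO on each day (−0.68, −2.09 and −4.58). The signal transducer Stat2 (16.8 and 20.4 CPM) was near equal, while Isg15 at 0.668 and 1.28 CPM and Cxcl10 at 0.23 and 0.182 CPM were too low to be compared. None of 11 genes of MHC class I presentation differed 2-fold (0 of 11, against 7.78% of all genes), and the light chain B2m was at 541 and 404 CPM.

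Secreted factors of the senescent phenotype differed in both directions. Of 21 cytokine and chemokine genes, 3 were at least 2-fold higher and 5 at least 2-fold lower, with a median of −0.1. Members past 2-fold made up 38.1% of the list, against 7.78% of all genes. The monocyte attractants Ccl2 and Ccl7 were lower, Ccl2 (chr11:82035571-82037453) at 86.8 CPM in WT against 19.3 CPM in KO and Ccl7 at 68.7 and 14.5 CPM. Ccl2 was at 91.0 to 153 CPM in WT against 16.3 to 24.1 CPM in KO on the other days. The adhesion receptor Vcam1 was at 245 and 57.1 CPM and the macrophage growth factor Csf1 at 1330 and 374 CPM. Lif, a cytokine known for holding stem cells undifferentiated, was higher in KO on all 3 days, with 22, 23.3 and 15.1 CPM in WT against 75.9, 105 and 109 CPM in KO. The chemokine Cx3cl1 (35.5 and 115 CPM) and the growth factor Hgf (4.68 and 13.1 CPM) were the others toward KO. Il6 lay under 5 CPM at day 36, at 4.38 CPM in WT against 1.86 CPM in KO, after 3.6 and 12.6 CPM on day 33.

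Several differences lay in the IGF binding proteins, which hold insulin-like growth factors outside the cell. Igfbp2 (chr1:72824503-72852474) was at 330 CPM in WT against 2930 CPM in KO, a ratio of 8.88 (8.73 to 9.04). Igfbp5, its neighbour on chromosome 1 (chr1:72857932-72874884), was at 77.2 and 3.83 CPM, 20.1-fold lower (16.6 to 24.7). Igfbp3 (chr11:7206086-7213923) was at 46.3 and 1.17 CPM, 39.7-fold lower (28.0 to 58.1), and Igfbp6 at 30.8 and 1.68 CPM. On days 33 and 42 the log2 ratios of Igfbp2 were 3.79 and 2.92 and those of Igfbp5 −1.68 and −3.81, so the neighbours kept opposite directions. On the deposited RPKM scale, which allows for gene length, Igfbp2 stood at 86.4 in WT and 884 in KO, against 7.16 and 0.207 for Igfbp3 (authors' values averaged over 4 columns).

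Of 18 genes of the IGF axis, 38.9% were at least 2-fold apart, against 7.78% of all genes. Of the 18, 1 was at least 2-fold higher and 6 at least 2-fold lower. Besides the binding proteins these were Igfbp4 (145 and 68.6 CPM), the ligand Igf1 (7.21 and 0.985 CPM) and the protease Htra1 (328 and 112 CPM). Igf2 (20.0 and 23.9 CPM) and the receptors Igf1r (144 and 157 CPM), Igf2r (866 and 795 CPM) and Insr (72.0 and 66.5 CPM) were near equal at day 36. Igf2 differed at day 42, where WT had 185 CPM and KO 13.5 CPM. Igfbp4 had the opposite direction on day 33, with 107 CPM in WT against 273 CPM in KO.

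**Figure D2:**
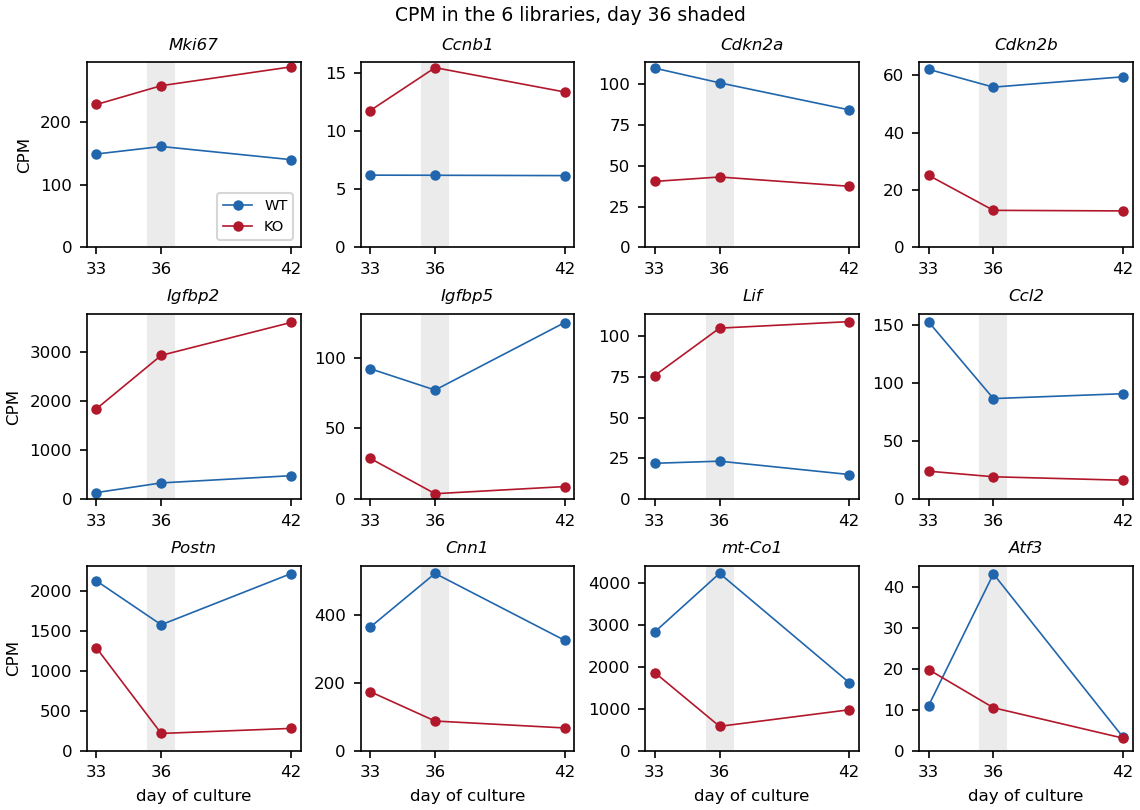
CPM of 12 genes (vertical axis, from 0) against day of culture (33, 36 and 42), with WT libraries in blue and KO libraries in red and 1 library per point. Ccnb1, Igfbp2 and Lif are higher in KO on every day, Cdkn2a, Cdkn2b, Igfbp5, Ccl2, Postn and Cnn1 lower on every day, and for mt-Co1 and Atf3 the WT level at day 36 stands above the other WT days.

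Extracellular matrix genes were lower in KO more often than higher. Of 40 collagen and matrix glycoprotein genes, 11 were at least 2-fold lower and 3 at least 2-fold higher, and the median log2 ratio was −0.66. The share past 2-fold was 35.0%, against 7.78% of all genes. Postn, periostin (chr3:54361109-54391037), was at 1580 CPM in WT against 218 CPM in KO, 7.22-fold lower (7.03 to 7.42). The glycoprotein Tnc was at 5050 and 1040 CPM, and the elastin gene Eln at 16.5 and 0.985 CPM. The basement membrane collagens Col4a1 (3200 and 831 CPM) and Col4a2 (2120 and 631 CPM) were lower together, as were Col12a1 (3700 and 1200 CPM) and Col6a3 (1420 and 493 CPM). The fibrillar collagens differed less, with Col1a2 at 7830 and 7600 CPM and Col1a1 at 9800 and 6820 CPM. Fbn2, a microfibril protein of embryonic tissue, was the largest exception, at 51.3 and 214 CPM, followed by Emilin1 and Fbln1. Postn and Eln differed less on day 33, where their log2 ratios were −0.73 and −0.48 against −2.85 and −3.99 at day 36.

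Genes of the contractile apparatus had a median log2 ratio of −1.0, with 9 of 18 at least 2-fold lower and 0 higher. Calponin (Cnn1) was at 522 CPM in WT against 87.7 CPM in KO, 5.95-fold lower (5.7 to 6.21), the kinase Mylk at 39.2 and 6.75 CPM, and Mrvi1 at 22.1 and 4.09 CPM. Smooth muscle actin (Acta2), the usual marker of myofibroblasts, was at 5510 and 2870 CPM, just short of 2-fold. The medians of this list were −0.32 on day 33 and −0.98 on day 42. In the same libraries 8 markers of smooth muscle and pericytes, several of them shared with this list, included 4 at least 2-fold lower in KO, and the summed level of that marker list was 7100 CPM in WT against 3680 CPM in KO. Their part in the contractile result was not tested.

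Among 23 matrix proteases and inhibitors, 7 were at least 2-fold lower (30.4%, against 7.78% of all genes in either direction) and 0 higher. Ctsk, the collagen-degrading cathepsin (chr3:95499256-95509362), was at 139, 116 and 125 CPM in WT against 8.93, 12.4 and 9.46 CPM in KO. At day 36 Ctsk was 9.35-fold lower (8.38 to 10.5). The inhibitor Timp3 was at 767 and 184 CPM and the metalloproteinase Mmp19 at 35.9 and 9.74 CPM, while Timp2 (2730 and 2290 CPM) and Ctsl (1240 and 1780 CPM) were under 2-fold.

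Of 26 genes of TGF-beta and BMP signalling, 8 were at least 2-fold lower and 0 higher. The ligand Tgfb2 was at 103 and 26.3 CPM and the receptors Bmpr1b and Acvrl1 at 29.4 and 6.31 CPM and at 25.1 and 5.44 CPM. The main TGF-beta receptors were near equal, Tgfbr1 at 46.6 and 63.6 CPM and Tgfbr2 at 141 and 166 CPM. Wnt genes were split 3 higher to 3 lower of 19 (31.6%, against 7.78% of all genes), with the antagonist Dkk2 at 47.6 and 1.93 CPM opposite Wnt16. Axon guidance and adhesion genes had 12 of 30 at least 2-fold lower, among them Slit3 (194 and 20.3 CPM) and the integrin Itga4 (18.4 and 1.97 CPM), and 2 higher. Together these were 46.7% of the list, against 7.78% of all genes.

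HOX genes encode homeodomain factors that mark position along the body axis and the limbs, and fibroblasts keep the pattern of their site of origin in culture. Of 39 HOX genes, 23 were compared, and 4 were at least 2-fold higher and 12 at least 2-fold lower in KO. These made up 69.6% of the compared HOX genes, against 7.78% of all genes. The Hoxa cluster was split by position within it. Hoxa2 (2.05 CPM in WT, 10.3 in KO), Hoxa3 (5.62 and 20.2), Hoxa5 (10.8 and 38.5) and Hoxa7 (10.2 and 30.4) were at least 2-fold higher, named here after their values were seen. All 4 genes from Hoxa9 to Hoxa13 were lower. Hoxa10 was at 17.8 and 0.255 CPM, Hoxa11 at 11.0 and 0.109 CPM, and Hoxa13 (chr6:52257694-52260880) at 5.55 CPM and 0 counts, at least 50.7-fold lower. The higher genes differed less steadily over days. Hoxa2 was at log2 ratios of 2.27 and 1.32 on days 33 and 42, Hoxa3 at 1.68 and 0.93, Hoxa5 at 1.05 and 0.77, and Hoxa7 at −1.01 and 0.02. At day 36 the medians were 1.83 for the 5 compared genes up to Hoxa8 and −5.97 for the 4 beyond it. The strand setting of the counting is not given in the sources used here, so reads of Hoxa11 and its antisense partner Hoxa11os, at least 54.5-fold lower, may not be separated.

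In the other clusters 0 genes were at least 2-fold higher. Hoxc had 4 of 5 genes at least 2-fold lower, with Hoxc10 at 9.82 CPM in WT against 0.182 CPM in KO and Hoxc6 at 33.2 and 6.79 CPM. Hoxd8 (16.1 and 1.17 CPM) and the digit gene Hoxd13 (5.85 and 0.0365 CPM) were both lower. Hoxb had 2 of 7 at least 2-fold lower, and its members Hoxb3 and Hoxb4 were near equal, with log2 ratios of 0.15 and −0.1. On day 33 the posterior Hoxa genes were closer between genotypes, with log2 ratios of −2.78 for Hoxa10 and −1.86 for Hoxa13, and on day 42 they stood at −6.45 and −7.66. Hoxc8 had an unadjusted p of 0.0039 in the edgeR test of day 36 against the other days (log2 ratios −2.94, −0.98 and −3.27), and an adjusted p of 1.0. The adjusted p of Hoxa10 in the edgeR fit of day 36 was 0.559.

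**Figure D3:**
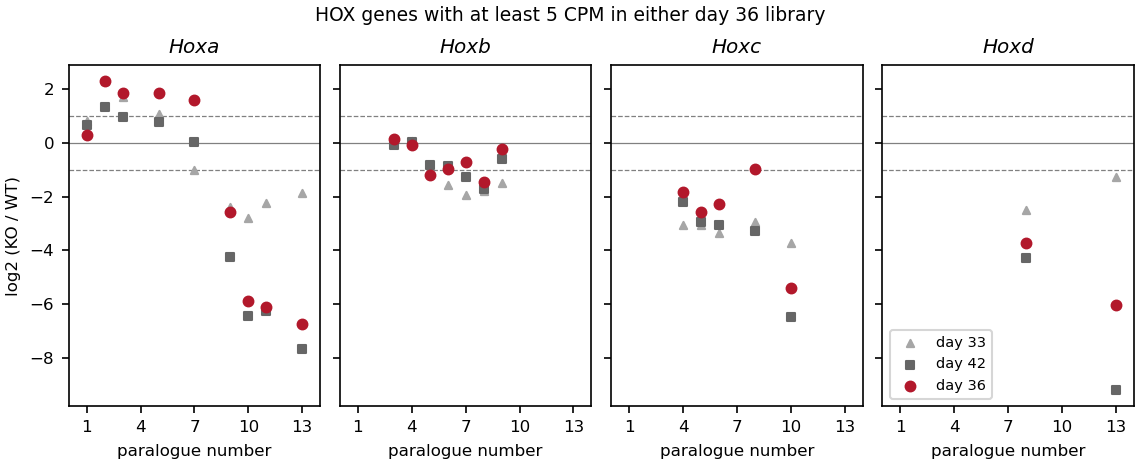
Log2 ratio of KO to WT (vertical axis) of the 23 HOX genes with at least 5 CPM in either day 36 library, by paralogue number within each of the 4 clusters, on day 36 (red circles) and on days 33 (light triangles) and 42 (dark squares), with dashed lines at 2-fold. The Hoxa genes numbered 2, 3, 5 and 7 stand above the upper line at day 36 and those from 9 to 13 below the lower line.

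Further patterning factors were compared in 29 members, of which 2 were at least 2-fold higher and 9 lower, with a median of −0.52. The share past 2-fold was 37.9%, against 7.78% of all genes. Besides Pitx1, the lower genes included the limb and heart factor Shox2, at 31.4 CPM in WT and 1.35 CPM in KO. En1 (13.1 and 1.02 CPM), Msx2 (13.2 and 0.876 CPM) and Foxf1 (15 and 1.61 CPM) were also lower, and Foxc1 (26.7 and 69.1 CPM) was higher. Foxf1 was higher in KO on day 33 (1.53) and lower on days 36 and 42 (−3.18 on both).

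Transcripts encoded in mitochondrial DNA, which code for subunits of the respiratory complexes, were lower in KO, all but 1 of them by at least 2-fold. Of 13 protein-coding genes, 12 were at least 2-fold lower (92.3%, against 7.78% of all genes in either direction). The median log2 ratio was −2.31, against −0.69 on day 33 and −0.43 on day 42. The cytochrome oxidase subunit mt-Co1 (chrM:5328-6872) was at 2840, 4240 and 1630 CPM in WT against 1870, 585 and 981 CPM in KO over the 3 days. At day 36 WT therefore had its highest and KO its lowest of the 3 levels, and the ratio was 7.24-fold lower in KO (7.12 to 7.36). Cytochrome b (mt-Cytb) was at 2660 and 421 CPM, mt-Nd5 at 1680 and 242 CPM, and mt-Nd6, which is read from the opposite strand, at 477 and 68.2 CPM. The smallest differences were in mt-Nd3 (285 and 218 CPM), mt-Co3 (2430 and 1070 CPM), mt-Atp6 (2550 and 1100 CPM) and mt-Atp8 (474 and 201 CPM), which are neighbours in the genome.

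The day 36 difference of these transcripts was set against that of the other days. In the edgeR test of day 36 against days 33 and 42, 5 of the 13 had an unadjusted p below 0.05, against 0.789% of all genes tested, with 0.0364 for mt-Co1 and 0.0401 for mt-Cytb, and 0 passed after adjustment (adjusted p 1.0 for both). The 13 were read in the same libraries and are not independent of each other. The share of 5 in 13 therefore does not measure how sure the day 36 difference is. Nuclear genes of the same complexes were near equal. Of 43 compared, 0 differed at least 2-fold, against 7.78% of all genes. The median was −0.08 and the range −0.5 to 0.31, and the ATP synthase subunits Atp5a1 (623 and 669 CPM) and Atp5b (894 and 820 CPM) were near equal. Because mitochondrial transcripts took 2.381% of the WT and 0.694% of the KO library, the counts were also rescaled without them, which gave 323 higher and 578 lower genes. The labels give no RNA quality value for these libraries.

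Immediate early genes, which cells switch on within minutes of serum or stress, formed another group in which day 36 stood apart in value. Of 23 genes, 8 were at least 2-fold lower in KO (34.8%, against 7.78% of all genes in either direction), 0 higher and 21 negative. The median over the 23 was −0.86, while the medians were 0.35 on day 33 and 0.16 on day 42. Atf3 (chr1:191170296-191218039) was at 11.0, 43.1 and 3.31 CPM in WT against 19.8, 10.5 and 3.09 CPM in KO. Fosb, an AP-1 subunit, was at 55.7, 150 and 2.0 CPM in WT against 76.8, 52.7 and 4.86 CPM in KO. In both genes the WT day 36 library was the highest of the 6. The phosphatase Dusp1 was at 259 and 99.9 CPM, Egr2 at 20.8 and 8.8 CPM, and Fos itself at 191 and 105 CPM, under 2-fold. Of the 24 listed genes, 0 had an unadjusted p below 0.05 in the test against the other days.

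The CArG box, the element bound by serum response factor, was searched in the same promoter windows. It was found in 5 of 22 windows of immediate early genes (22.7%) and in 1.63% of all windows, and the cAMP response element TGACGTCA in 2 of 22 (9.09%) against 1.79%. Egr2 and Zfp36, the latter a factor that destabilizes AU-rich messages, held a CArG box in the 110 bases before the start. These stretches are shown in the direction of transcription with the box in capitals, for Egr2 at chr10:67537456-67537565 (plus strand) and for Zfp36 at chr7:28379229-28379338 (minus strand), from RefSeq on GRCm38.p6.
Egr2: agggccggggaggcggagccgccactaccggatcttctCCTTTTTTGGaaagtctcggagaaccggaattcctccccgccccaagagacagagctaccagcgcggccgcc
Zfp36: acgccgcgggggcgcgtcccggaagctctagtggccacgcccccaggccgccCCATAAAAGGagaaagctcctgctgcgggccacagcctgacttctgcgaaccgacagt
Zfp36 was at 138 CPM in WT against 65.1 CPM in KO at day 36.

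Stress genes of the unfolded protein and integrated stress responses were lower in 24 of 30 members. The list median was −0.3, against −0.02 on day 33 and 0.0 on day 42. At least 2-fold lower were 6 (20.0%, against 7.78% of all genes). Besides Atf3 they included the death-associated factor Ddit3 (51.5 CPM in WT, 20.1 in KO), Chac1 (40.2 and 16.2 CPM) and Nupr1 (150 and 67.0 CPM), whereas the endoplasmic reticulum chaperones Hsp90b1 (1600 and 1380 CPM) and Pdia3 (1760 and 1590 CPM) were near equal. NRF2 and antioxidant genes had 7 of 34 at least 2-fold lower (20.6%, against 7.78% of all genes) and 0 higher. These included the extracellular dismutase Sod3 (29.8 and 3.9 CPM), the peroxidase Gpx3 (25.1 and 7.45 CPM) and the glutathione transferases Gsta4 (12.9 and 3.58 CPM) and Gstm2 (17.9 and 5.4 CPM), while Txnrd1 (328 and 238 CPM), a core NRF2 target, was under 2-fold. Of 22 heat shock and chaperonin genes, 0 differed at least 2-fold, against 7.78% of all genes.

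In lipid metabolism, 32 of 33 genes of cholesterol and fatty acid synthesis had a positive log2 ratio at day 36, against 5317 of all 11794 genes. The list median was 0.45. On days 33 and 42 the medians were 0.18 and 0.0. Stard4, a sterol carrier (48.3 CPM in WT, 104 in KO), and the desaturase Fads2 (88.0 and 189 CPM) were the genes at least 2-fold higher. They made up 6.06% of the list, against 7.78% of all genes past 2-fold in either direction. Glycolysis and hypoxia genes were negative in 28 of 32 members (median −0.45), with 1 at least 2-fold higher and 3 lower (12.5% of the list). The higher one was the carbonic anhydrase Car12 (3.41 and 8.39 CPM), and the lower ones included the lactate exporter Slc16a3 at 30.7 and 3.39 CPM and the oxygen sensor Egln3 at 9.95 and 2.12 CPM. Cytosolic ribosomal proteins (median 0.19) and ribosome biogenesis genes (median 0.11) had 1 member each at least 2-fold apart, which were Rpl39l and Mycn. In the imprinted growth network 4 of 16 genes were at least 2-fold higher, led by Mest (2.6 and 24.9 CPM) and the amino acid transporter Slc38a4 (28.9 and 158 CPM), and 2 lower, Dlk1 and Zdbf2. Together these were 37.5% of the list, against 7.78% of all genes.

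**Figure D4:**
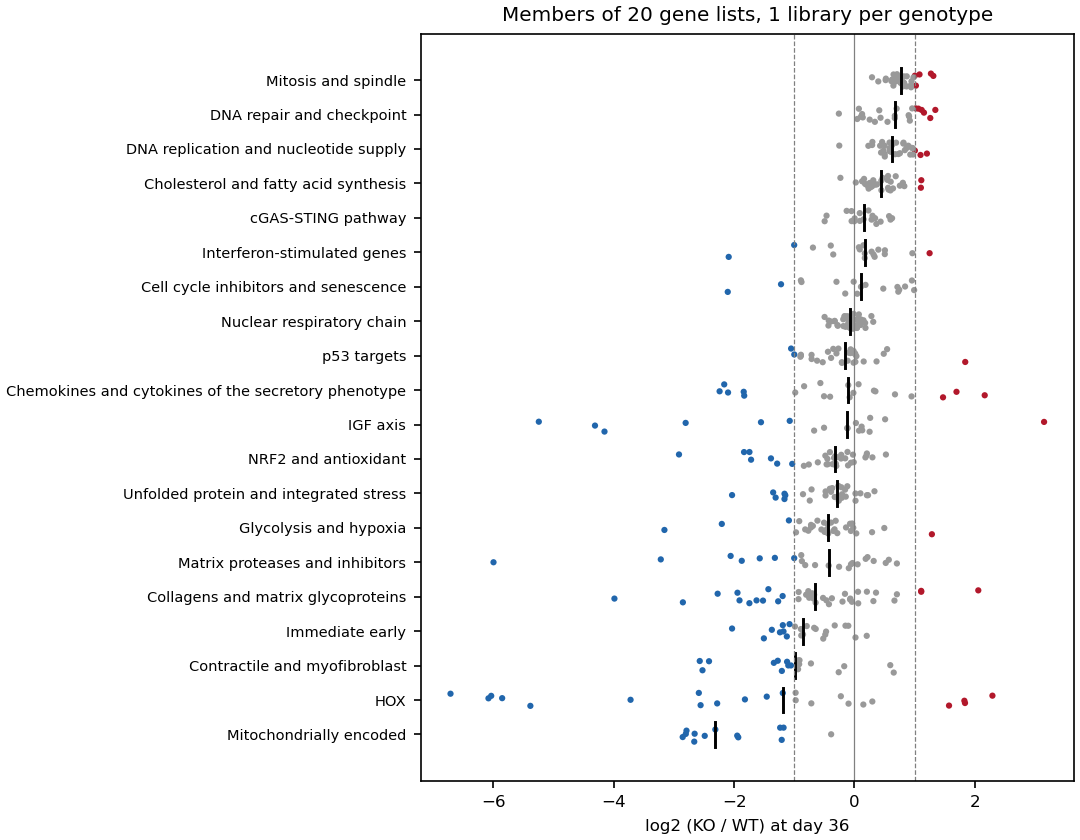
Log2 ratio of KO to WT at day 36 (horizontal axis) for the compared members of 20 gene lists, 1 point per gene, with the list median as a black bar, dashed lines at 2-fold, and genes at least 2-fold higher in red and lower in blue. The mitosis list lies wholly right of 0 with a median of 0.77, and the mitochondrially encoded list wholly left of 0 with a median of −2.31.

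Markers of the labelled cell type were present in both libraries. Of 13 fibroblast markers, 12 reached 5 CPM, with a summed level of 61700 CPM in WT against 50200 CPM in KO. All 12 had a negative log2 ratio, with a median of −0.83 against −0.04 over all genes. At least 2-fold lower in KO were 4 (33.3%, against 7.78% of all genes in either direction), and 0 were at least 2-fold higher. The 4 were Postn, Thy1 (1080 and 439 CPM), Pdgfra (45.1 and 18.5 CPM) and Pdgfrb (393 and 183 CPM). Macrophage markers were low at day 36, more so in KO. Only Lyz1 and Lyz2 of 21 reached 5 CPM, and the sum of the list was 52.7 CPM in WT against 8.58 CPM in KO, after 265 and 118 CPM on day 33 and before 12.9 and 7.16 CPM on day 42. In the WT day 36 library Lyz2 was at 12.7 CPM and Csf1r at 4.93 CPM, against 0.073 and 1.53 CPM in KO. Other listed markers were closer between the genotypes, with Ptprc at 2.37 and 1.97 CPM, Cd68 at 2.37 and 1.75 CPM and Cd14 at 2.93 and 2.74 CPM. In the KO day 36 library 5 macrophage markers, among them C1qc and Mpeg1, had 0 counts. The chemokine Ccl2 was also lower in KO, with log2 ratios of −2.66, −2.17 and −2.48 on days 33, 36 and 42. In WT it stood at 153, 86.8 and 91.0 CPM on these days, where the macrophage list sum was 265, 52.7 and 12.9 CPM. A part of macrophages in the Ccl2 difference was not tested.

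Markers of other lineages differed in level. The largest sums after smooth muscle were those of the skeletal muscle list, at 809 CPM in WT and 387 CPM in KO, and of the neural and glial list, at 397 and 588 CPM. The summed epithelial markers were at 79.6 CPM in WT against 113 CPM in KO, the endothelial markers at 20.0 and 14.5 CPM, the adipocyte markers at 32.9 and 6.97 CPM, and the cartilage and bone markers at 118 and 205 CPM. The cartilage list included Sox9 (19.2 and 41.1 CPM) and Col2a1 (60.5 and 127 CPM), and Col2a1 had been at 1100 CPM in the KO library of day 33. Its other defining genes did not share this direction, with Runx2 lower in KO (33.1 and 20.6 CPM) and Acan near equal (1.04 and 1.09 CPM). In the skeletal muscle list nearly all of the signal came from the actins Acta1 (656 and 315 CPM) and Actc1 (143 and 62.0 CPM), both at least 2-fold lower in KO. Of its other defining genes, the myogenic factor Myod1 had 0 counts in all 6 libraries, and Myog and Ckm stayed at or under 0.0365 CPM. The part of these markers in the contractile result was not tested. Of the red cell and the germ cell markers, 0 reached 5 CPM.

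The day 36 differences were then read on the other days, whose libraries are separate from those of day 36. Day 33 had 777 genes at least 2-fold apart (6.54% of 11877), with 284 (2.39%) higher and 493 (4.15%) lower in KO. Day 42 had 1147 (9.54% of 12019), with 369 (3.07%) higher and 778 (6.47%) lower. Of the 324 genes higher at day 36, 144 (44.4%) were at least 2-fold higher on day 33, 155 (47.8%) on day 42, 80 (24.7%) on both and 105 (32.4%) on neither. Over all 11794 genes, 2.2% were at least 2-fold higher on day 33 and 3.09% on day 42. Of the 593 lower genes, 281 (47.4%) were at least 2-fold lower on day 33 and 378 (63.7%) on day 42, against 3.67% and 5.36% of all genes. Both days shared 222 (37.4%) of them, and 156 (26.3%) were on neither. Read from the other side, the shared genes were 55.4% and 42.5% of the genes 2-fold higher on days 33 and 42, and 64.9% and 59.8% of those 2-fold lower. A 2-fold difference in the opposite direction was found for 9 higher and 12 lower genes on day 33 and for 6 and 3 on day 42.

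**Figure D5:**
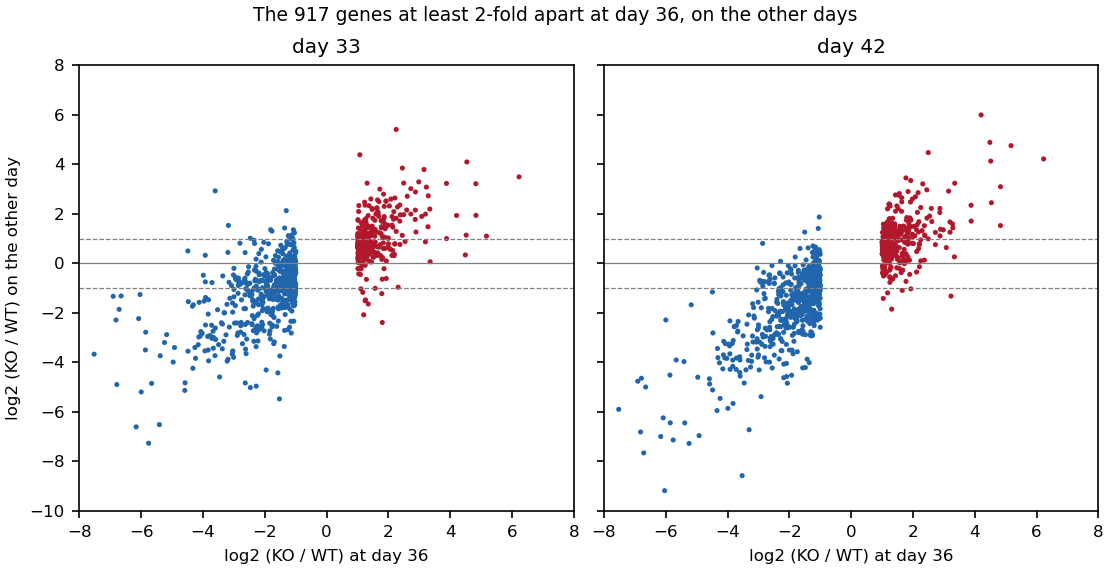
Log2 ratio of KO to WT at day 36 (horizontal axis) against that on day 33 (left) and day 42 (right) for the genes at least 2-fold apart at day 36, with higher genes in red, lower genes in blue and dashed lines at 2-fold. Xist lies outside the axes, and 93.5% of the higher and 87.9% of the lower genes keep their sign on day 33, and 89.2% and 94.3% on day 42.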

How the data were processed

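RNA was sequenced from WT and cGAS KO fibroblasts at 3 days, with 4 labelled samples for each. The authors deposited estimated counts per gene, which are fractional and raw, per the file headers. The authors also deposited RPKM, per the file headers, used here for levels between genes only. The submitters' processing notes name mm10, Bowtie2 2.2.1 and limma 3.18.13. For the counting program and its strand setting the sources used here give nothing. A further 48 columns of per-transcript values were not used.

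The 4 columns of a group agreed within sampling noise. Over genes with at least 80 counts, chi-square divided by its degrees of freedom was 0.832 to 0.843, against 42.5 between a WT and a KO column of day 36. They were summed, rounded and counted as 1 library. The p-values rest on the spread of day 33 against day 42 within each genotype, with 2 residual degrees of freedom. That spread may hold culture changes over those days as well as technical differences, and the day 36 libraries add nothing to it. CPM used TMM factors over 6 libraries, and log2 CPM a prior count of 2. Fits used edgeR 4.0.16 in R 4.3.3, with DESeq2 1.42.0 and limma 3.58.1 as alternatives, and were tested on simulated data. All 18509 genes passing edgeR's filterByExpr were adjusted together. Coordinates are from GENCODE M21 (GRCm38), matched by gene ID for 45143 of 45706 genes.

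The gene lists (34) and marker lists (12) were chosen with earlier results of these data known. Named genes are the target, the 15 largest ratios each way without predicted names, up to 4 members of each list at least 2-fold apart, up to 2 abundant members under 2-fold, the 5 most abundant genes of each library and a set named in advance. Further members are named as examples, chosen after their values were seen. A few genes picked by this rule are not reported here.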

Additional observations from a re-analysis of the deposited data

Results flagged for a closer look

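Among reported genes picked by the naming rule, 5 were at least 2-fold apart in opposite directions on day 36 and another day. The same held for Igfbp4, Hoxa7, Foxf1 and Ifit3b, which are named above outside that rule, each against day 33. Mest, an imprinted hydrolase gene, had a log2 ratio of 3.23 at day 36, after 3.08 on day 33 and before −1.33 on day 42, where WT reached 90.0 CPM and KO 35.9 CPM. Fgf10, a growth factor of limb and lung budding, was at 1.65 on day 36 and −1.1 on day 42. Ifit3 was at −1.52 on day 33 and 1.25 on day 36. Egr2 was at 1.12 on day 33 and −1.24 on day 36, and Fosb at −1.51 on day 36 and 1.26 on day 42, where both genotypes were under 5 CPM. In edgeR's test of day 36 against the other days, none of the 5 passed (0 called, adjusted p 1.0 for each, unadjusted p from 0.0748 for Egr2 to 0.546 for Fosb).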

How the results depend on the processing

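Each count rests on 1 library per genotype, and the KO day 36 library is the shallowest of the 6. Against 324 higher and 593 lower genes, library totals without TMM factors gave 540 higher. A minimum of 1 CPM gave 541 and 992, 20 CPM gave 175 and 324, no filter gave 1083 and 2211, and a 3-fold minimum gave 117 and 295. Leaving out column 1, 2, 3 or 4 gave 314 to 331 higher and 580 to 596 lower. Over the gene lists, members at least 2-fold higher went from 46 to 81 without TMM factors. Counting any difference of the same sign, 303 and 289 of the higher genes kept their direction on days 33 and 42, and 521 of the lower genes on day 33. Genes called against the spread of the other days numbered 253 with DESeq2 and 4 without a filter, against 0 in edgeR, limma-voom and the fits that left out 1 library of another day. The cause was not tested. Of 1314 values of 219 named genes under 6 scaling and prior count settings, 275 left their counting interval and 0 reversed.

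The column numbers are shared between groups but did not pair the columns (correlation of deviations 0.0071 to 0.0332). With 8 columns as libraries, 359 higher and 551 lower genes were called by edgeR, both with the replicate block and without it.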
